A study of Mus musculus with 12 samples.

Results

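The immediate-early genes Egr1, Egr2, Egr3, Ier2, Ier3, Ier5, Nr4a1, Plk2 and Plk3 were followed in mouse macrophages and osteoclasts, with and without lipopolysaccharide (LPS, from the outer membrane of bacteria). The 9 genes were chosen from gene families by symbol, with their FPKM values and LPS responses in these libraries already known, so the levels and differences of FPKM below are descriptions of each gene and no threshold divides these genes from others. They are 9 of the 54532 genes in the deposited table, and 8 of them are among the 11335 genes that reached 1 FPKM in 3 or more of the 12 libraries, the filter used here. Egr3 did not pass. Egr1, Egr2 and Nr4a1 passed through macrophage libraries alone, so a difference between the cell types was favoured by the filter for these 3 genes. Nr4a1 reached 1 FPKM in the 3 untreated macrophage libraries and in only 1 LPS-treated library, so the filter also favoured a fall with LPS in macrophages and, with it, a difference between the LPS effects.

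RNA sequencing was done on 4 groups of 3 libraries: untreated macrophages, LPS-treated macrophages, untreated osteoclasts and LPS-treated osteoclasts. All cells came from the bone marrow of wild-type mice and in every group were grown with CMG, which supplies the macrophage growth factor M-CSF. Osteoclasts, the bone-resorbing cells, were obtained from such macrophages by adding RANKL, given as 100 ng/mL in the sample source and as a range in the protocol, and macrophages received none. LPS was given on day 5 at 100 ng/mL for 3 h, and no other time was analysed here. The labels do not say whether the 3 libraries of a group came from separate mice or cultures, so p-values measure only the spread between these libraries, which may be technical.

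Immediate-early genes are switched on by signals such as growth factors, stress or microbial products without a need for new protein synthesis, largely through MAP kinases acting on serum response factor and its partners, through CREB and, for some, through NF-kappaB. Their mRNAs are typically short-lived, and several of their proteins switch the response off again. EGR proteins are zinc-finger transcription factors, with EGR1 and EGR2 long studied in the differentiation of myeloid cells. NR4A1 is an orphan nuclear receptor that restrains inflammatory genes in macrophages, IER proteins are small regulators of stress and growth signalling, and PLK2 and PLK3 are polo-like kinases linked to stress and the cell cycle.

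Libraries held 15651770 to 20281456 reads assigned to genes, recovered from the deposited values. Values are FPKM, fragments per kilobase of exon, whose scaling follows the typical gene rather than the read total. Of the 10 osteoclast markers, the summed FPKM was 29220 to 32220 in osteoclasts and 16.3 to 29.0 in macrophages. The protease gene Ctsk had a mean of 15541 FPKM in untreated osteoclasts and 1.43 in untreated macrophages. The 8 macrophage markers summed to 2039.6 to 2511 FPKM in macrophages and 1702 to 1804 in osteoclasts, but their sum in osteoclasts was carried by Cd68 (1402 FPKM without LPS, against 670.2 in macrophages) and Csf1r (310.2 against 441). Adgre1 was at 428 FPKM in untreated macrophages and 33.1 in untreated osteoclasts, Mrc1 at 293 and 2.57, Cx3cr1 at 142 and 0.486, and Fcgr1 at 45.1 and 0.429. The 3 stromal markers Col1a1, Col1a2 and Pdgfrb summed to 25.1 to 35.3 FPKM in macrophages and to 0.0638 to 0.702 in osteoclasts. The 5 neutrophil markers summed to 4.08 to 11.8 and 0.170 to 1.62, with Ly6g and Elane at 0 in untreated macrophages and in all osteoclast libraries. The T cell, B cell and erythroid markers summed to at most 0.135 FPKM in any library, and the 2 dendritic cell markers to at most 1.33. Mitochondrial transcripts held 1.27% to 1.62% of reads in macrophages and 5.16% to 6.18% in osteoclasts.

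The genes are short. On build GRCm38 (GENCODE M21), Egr2 lies at chr10:67535475-67542188, Egr3 at chr14:70077203-70082614 and Nr4a1 at chr15:101254269-101274795, all on the plus strand like Egr1. Ier3 lies at chr17:35821684-35822923 and Plk2 at chr13:110395046-110400844 on the plus strand. Ier2 at chr8:84661331-84662852, Ier5 at chr1:155096361-155099636 and Plk3 at chr4:117128655-117133963 are on the minus strand. Ier2 and Ier5 each have a single exon and Ier3 has 2, whereas Plk2 has 14 and Plk3 has 15 in their longest transcripts. For 8 of the 9 genes the span was under 10479 bases, the lower quartile of the 10261 protein-coding genes that passed the filter, and Nr4a1 spanned 20527 bases against a median of 23825. Plk3 and the opposite-strand gene Tctex1d4 share 84 exon bases. Whether counting used strand is not stated, so reads in that stretch cannot be assigned to either gene. Tctex1d4 was at 0.990 FPKM in untreated and 0.173 in LPS-treated macrophages, and at 0.195 and 0.135 in osteoclasts.

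The sequences just upstream of 3 genes are shown because their transcripts moved in unlike ways: Ier3 and Plk2 rose with LPS in both cell types, and Plk3 fell in macrophages. RefSeq promoter sequences (GRCm38.p6) were found for 6 of the 9 genes, namely Egr2, Ier3, Ier5, Nr4a1, Plk2 and Plk3, and not used for Egr1, Egr3 and Ier2. Each line runs 5′ to 3′ on the gene's strand, and the lines of Plk2 and Plk3 end at the last base before the RefSeq start site. The line of Ier3 has 221 bases and ends just before the GENCODE gene, which begins 29 bases ahead of the RefSeq start site from which distances are counted. Capitals mark a match to a searched motif, the kappaB site in Ier3 and the cAMP response element in Plk2. The regions are chr17:35821463-35821683 (plus strand), chr13:110394794-110395043 (plus strand) and chr4:117133964-117134213 (minus strand).
Ier3: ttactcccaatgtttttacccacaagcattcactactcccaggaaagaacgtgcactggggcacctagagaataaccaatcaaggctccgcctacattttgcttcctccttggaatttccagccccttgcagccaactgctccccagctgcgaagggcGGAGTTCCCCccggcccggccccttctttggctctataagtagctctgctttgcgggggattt
Plk2: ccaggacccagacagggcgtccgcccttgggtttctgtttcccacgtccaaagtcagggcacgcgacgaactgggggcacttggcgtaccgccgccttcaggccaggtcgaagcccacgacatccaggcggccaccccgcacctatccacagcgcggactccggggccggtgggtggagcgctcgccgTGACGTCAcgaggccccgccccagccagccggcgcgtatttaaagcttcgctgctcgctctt
Plk3: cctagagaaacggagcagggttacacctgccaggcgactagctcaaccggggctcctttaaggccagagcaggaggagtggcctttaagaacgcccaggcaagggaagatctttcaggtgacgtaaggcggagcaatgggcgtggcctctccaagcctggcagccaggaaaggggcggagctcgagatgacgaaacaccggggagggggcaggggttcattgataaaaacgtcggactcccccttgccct

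Both strands of the window from 250 bases before to 50 after each start were searched for 7 motifs: the CArG box, the cAMP response element TGACGTCA, the AP-1 site TGANTCA, the kappaB site, the EGR site GCGNGGGCG, the ETS core CCGGAA and the TATA box TATAAA. The Ier3 window held a kappaB match that began 92 bases upstream of the start, a motif present in 8.46% of the 32851 windows of that length. The Plk2 window held the cAMP response element 62 bases upstream, present in 1.79% of windows. The windows of Plk3 and Ier5 held none of the 7 motifs, which says only that these letters are not there. The Nr4a1 window held an EGR site (5.55% of windows) 60 bases upstream, an ETS core (14.9%) 125 bases upstream, and overlapping kappaB matches on both strands at the start site, but that start lay 12577 bases inside the GENCODE gene. Of 5 windows for Egr2, the window nearest the gene's start held overlapping kappaB matches from 117 bases upstream, and CArG boxes (1.63% of windows) were found in other start windows. A match is a description of the letters and not of a site in use.

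The polo-like kinase genes Plk2 and Plk3 moved in opposite directions in macrophages given LPS. Plk3, a stress-responsive kinase, was at 27.5, 25.2 and 23.7 FPKM in untreated macrophages and at 0.774, 0.847 and 0.843 after LPS. These groups were far apart: 1337 to 1616 reads a library became 25 to 32. The mean fell 31.0-fold, and the log2 difference was -3.86 (SE 0.07; limma adjusted p = 3.26e-13). Log2 differences here and below were taken on log2(FPKM + 1), where low genes show less than their full change, and adjusted p-values are limma's, with the Benjamini-Hochberg correction over all 11335 genes. In osteoclasts, Plk3 was at 9.38, 8.60 and 9.97 FPKM without LPS and at 8.44, 7.92 and 8.90 with it. The osteoclast groups overlapped, and the log2 difference of -0.13 (SE 0.07; adjusted p = 0.205) did not pass the test. The difference between the LPS effects, the interaction, was 3.73 (SE 0.09; adjusted p = 4.53e-11). Since these are bulk samples, fewer cells expressing a gene and less RNA per cell cannot be told apart.

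Plk2, which encodes a related kinase known from synapses and centrioles, was at 6.41, 7.24 and 6.90 FPKM in untreated macrophages and at 12.6, 14.1 and 13.0 with LPS. In osteoclasts it was at 6.50, 7.01 and 7.28 without LPS and at 10.2, 9.23 and 10.4 with it. Untreated libraries of both cell types covered the same range, and every LPS library lay above every untreated one. The rise was 1.93-fold in macrophages (log2 difference 0.86, SE 0.06; adjusted p = 1.28e-07) and 1.43-fold in osteoclasts (0.46, SE 0.06; adjusted p = 2.94e-04). The macrophage effect on Plk2 was smaller on TPM (0.29, adjusted p = 0.00208) and after quantile normalization (0.65, adjusted p = 1.39e-06). The LPS effect was smaller in osteoclasts by 0.39 on the log2 scale (interaction -0.39, SE 0.09; adjusted p = 0.00261), but it turned to 0.14 and no longer passed (adjusted p = 0.225) when values were rescaled to TPM.

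The order of the 2 kinase genes therefore differed between groups. In FPKM, the ratio of Plk3 to Plk2 was 4.30, 3.48 and 3.44 in untreated macrophages, and the order was reversed with LPS, where Plk2 exceeded Plk3 16.2, 16.7 and 15.4 times. In untreated osteoclasts the ratio of Plk3 to Plk2 was 1.44, 1.23 and 1.37, and with LPS it was 0.831, 0.858 and 0.852. No group's ratios overlapped those of another group. Because both values come from the same library, a scaling factor per library leaves the ratio as it is. Of the other polo-like kinase genes, Plk1, which drives mitosis, was at 15.9 FPKM in untreated macrophages and fell to 7.40 with LPS (log2 difference -1.01, SE 0.12; adjusted p = 1.10e-05; -1.69 on TPM), and was at 1.99 in untreated osteoclasts. Plk4, which drives centriole duplication, was at 3.92 and 3.69 FPKM in macrophages and 0.804 and 0.752 in osteoclasts. Its LPS effect in macrophages did not pass as deposited (-0.07, adjusted p = 0.341) but was called lower on TPM (-0.68, adjusted p = 1.38e-05). Plk5 was listed at 0 in all libraries.

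**Figure D1:**
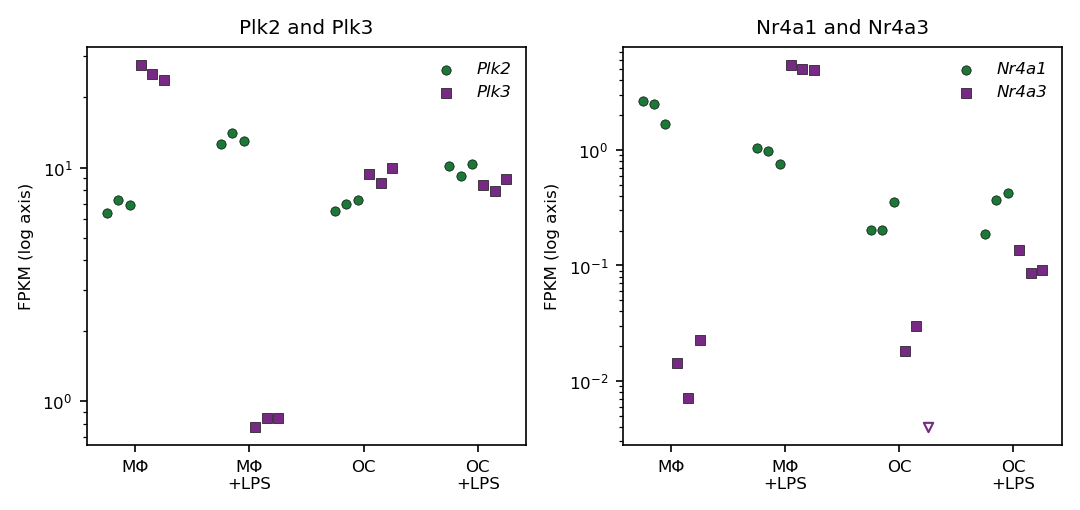
FPKM on a log axis of Plk2 and Plk3 (left) and of Nr4a1 and Nr4a3 (right) in each library of the 4 groups (MΦ, macrophages; OC, osteoclasts); each point is 1 library and an open triangle marks a value of 0. Plk3 lies above Plk2 in untreated cells of both types and below it with LPS, and Nr4a3 lies above Nr4a1 only in LPS-treated macrophages.

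Among the IER genes, Ier3 differed most between the cell types. It encodes a stress-inducible protein that acts on survival and ERK signalling. Ier3 was at 15.6, 15.6 and 13.4 FPKM in untreated macrophages and at 86.7, 90.5 and 88.5 with LPS, with no overlap. In osteoclasts it was at 1.53, 1.15 and 1.25 FPKM without LPS and at 2.72, 1.95 and 3.44 with it, so each osteoclast library lay below each macrophage library. LPS raised Ier3 5.95-fold in macrophages (log2 difference 2.50, SE 0.12; adjusted p = 2.50e-09) and 2.06-fold in osteoclasts (0.66, SE 0.12; adjusted p = 0.00250), from 78 to 166 reads over the 3 osteoclast libraries of each group. In the LPS-treated osteoclast libraries, some markers of other cells were also higher than in the untreated ones. Adgre1 was at 73.1, 42.5 and 70.9 FPKM, against 33.1 on average without LPS, and Fcgr1 at 1.68, 0.927 and 1.88, against 0.429. Of the 8 macrophage markers, Adgre1, Fcgr1 and Mrc1 had higher means with LPS and the other 5 lower, and all 3 stromal markers had higher means (Col1a1 0.267 against 0.0660). Within macrophages, too, means were higher with LPS for Adgre1 (428 to 669.7 FPKM), Fcgr1 (45.1 to 161) and Mrc1 (293 to 343). Itgam, Mertk and Cd68 also had higher means with LPS in macrophages, and Csf1r and Cx3cr1 had lower ones. Whether LPS acted on these markers in osteoclasts was not tested. Replicate 2 was the lowest of the 3 for 6 of the 8 macrophage markers and the highest for Cd68 and Csf1r, and it was the lowest for Col1a1 and Col1a2 but not Pdgfrb. It was also the lowest for 6 of the 9 immediate-early genes and the highest for Ier2. Of these 6, Ier3 and Plk2 were called for LPS in osteoclasts. Plk3, Ier5 and Egr1 did not pass, and Egr3 was below the filter and not tested with the others. The part of other cells in the osteoclast values was not tested. With each library left out in turn, the osteoclast effect on Ier3 ranged from 0.52 to 0.82 and stayed called. The interaction was -1.83 (SE 0.17; adjusted p = 2.30e-06), and -1.12 on TPM. On the ratio of mean FPKM, with no pseudocount, the gap between the log2 effects was -1.53.

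Ier2 and Ier5, single-exon genes of which IER5 is known to help activate heat shock factor 1, were expressed in both cell types. Ier2 was at 22.5, 19.3 and 20.9 FPKM in untreated macrophages, 31.8, 31.0 and 30.6 with LPS, 20.7, 18.0 and 19.1 in untreated osteoclasts and 21.5, 24.1 and 21.0 with LPS. The untreated groups of both cell types overlapped, LPS-treated macrophages lay above the rest, and LPS-treated osteoclasts lay just above untreated ones. Ier5 was at 23.9, 25.2 and 24.1 FPKM in untreated macrophages, 30.1, 32.0 and 30.9 with LPS, 11.1, 11.4 and 10.6 in untreated osteoclasts and 11.3 to 12.5 with LPS, with a mean of 11.9. Osteoclast libraries were low whether or not LPS was given, and their 2 groups overlapped. In macrophages LPS gave a log2 difference of 0.56 for Ier2 (SE 0.07; adjusted p = 1.22e-05), which turned to -0.07 on TPM (adjusted p = 0.417) and was 0.08 after quantile normalization (adjusted p = 0.320), neither passing. For Ier5 it was 0.33 (SE 0.05; adjusted p = 3.94e-05), turning to a called fall of -0.30 on TPM (adjusted p = 1.18e-04) and -0.16 after quantile normalization (adjusted p = 0.00685). Both rises are thus relative to the typical gene. In osteoclasts neither passed (Ier2 0.20, adjusted p = 0.0692; Ier5 0.11, adjusted p = 0.137). The interaction was -0.36 for Ier2 (adjusted p = 0.00674) and -0.22 for Ier5 (adjusted p = 0.0112), and both turned positive on TPM and after quantile normalization. For Ier2 the turned value did not pass (0.20, adjusted p = 0.118, and 0.03, adjusted p = 0.816), and for Ier5 it did (0.34, adjusted p = 8.55e-04, and 0.20, adjusted p = 0.0174). Ier5l, a paralog of Ier5, fell in macrophages, where Ier5 rose as deposited but fell on TPM and after quantile normalization. Ier5l was at 6.90, 7.12 and 6.48 FPKM and fell to 0.380, 0.799 and 0.583 with LPS (-2.31, SE 0.13; adjusted p = 7.52e-09). In osteoclasts Ier5l was at 1.37, 1.61 and 2.06 FPKM and at 1.24, 1.72 and 1.04 with LPS (-0.20, adjusted p = 0.312).

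**Figure D2:**
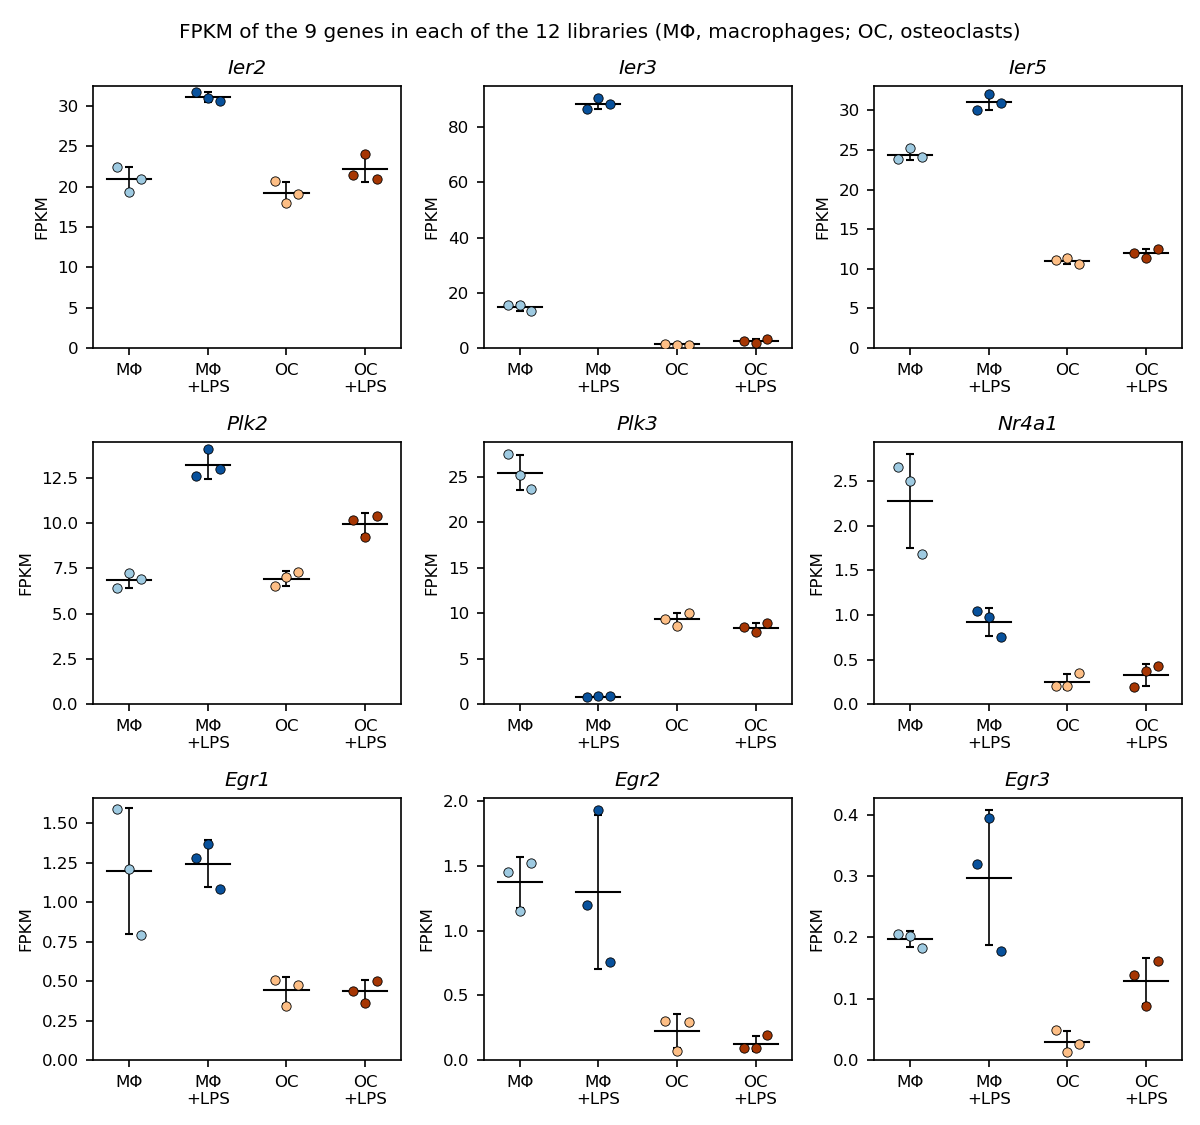
FPKM of the 9 genes in each library by group (MΦ, macrophages; OC, osteoclasts), 1 gene per panel with its own linear axis from 0; points are libraries, horizontal lines the mean of 3 and bars the SD. Plk3 in LPS-treated macrophages (0.774 to 0.847 FPKM) and Ier3 in osteoclasts (1.15 to 3.44 FPKM) are the low groups of genes that are high elsewhere.

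The transcription factor genes were low at 3 h. Nr4a1 was at 2.66, 2.51 and 1.68 FPKM in untreated macrophages and at 1.05, 0.974 and 0.750 with LPS, with no overlap. In osteoclasts it was at 0.201, 0.202 and 0.352 without LPS and at 0.187, 0.370 and 0.422 with LPS, and these groups overlapped. LPS lowered Nr4a1 2.47-fold in macrophages (log2 difference -0.76, SE 0.12; adjusted p = 1.42e-04), and the osteoclast difference of 0.08 (adjusted p = 0.710) did not pass, on 46 and 60 reads over 3 libraries each. On TPM the macrophage effect was -1.56. The interaction was 0.84 (SE 0.17; adjusted p = 0.00133), and 1.70 on TPM, and it shares the filter's leaning toward a high untreated macrophage group. Its relative Nr4a3, another orphan receptor of the same family, moved the opposite way in macrophages. Nr4a3 had 6 reads over the 3 untreated macrophage libraries (0.0144, 0.00710 and 0.0225 FPKM) and 1284 with LPS (5.43, 5.05 and 4.97 FPKM), a log2 difference of 2.60 (SE 0.06; adjusted p = 4.20e-12) that depends on the pseudocount. In osteoclasts Nr4a3 had 5 reads without and 34 with LPS, a log2 difference of 0.12 (adjusted p = 0.217) that passed with a pseudocount of 0.1 (0.82, adjusted p = 0.0250) and in voom on the reads (2.78, adjusted p = 0.00441). Nr4a3 passed the filter through LPS-treated macrophages alone, and Nr4a2 was below it, at 0.199 to 0.739 FPKM.

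Egr1 was at 1.59, 1.21 and 0.791 FPKM in untreated macrophages and at 1.28, 1.37 and 1.08 with LPS. In osteoclasts it was at 0.508, 0.343 and 0.472 without LPS and at 0.439, 0.362 and 0.501 with LPS. Macrophage libraries were above osteoclast libraries throughout, and LPS-treated and untreated libraries overlapped in both cell types. Egr2 was at 1.45, 1.15 and 1.52 FPKM in untreated macrophages, 1.20, 1.93 and 0.754 with LPS, 0.303, 0.0697 and 0.294 in untreated osteoclasts and 0.0892, 0.0955 and 0.193 with LPS. The LPS effect on Egr1 was 0.04 in macrophages (adjusted p = 0.760) and -0.01 in osteoclasts (adjusted p = 0.981), and on Egr2 it was -0.08 (adjusted p = 0.683) and -0.11 (adjusted p = 0.681). On TPM both genes were called lower with LPS in macrophages, Egr1 at -0.43 (adjusted p = 0.0448) and Egr2 at -0.64 (adjusted p = 0.0323). The interaction was -0.05 for Egr1 (SE 0.17; adjusted p = 0.821) and -0.04 for Egr2 (SE 0.22; adjusted p = 0.902), and neither passed. With these standard errors an effect on either gene is not shown to be absent.

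Egr3 was at 0.206, 0.203 and 0.183 FPKM in untreated macrophages, 0.320, 0.395 and 0.178 with LPS, 0.0492, 0.0134 and 0.0267 in untreated osteoclasts and 0.138, 0.0883 and 0.162 with LPS. These osteoclast values rest on 7 reads without and 31 reads with LPS over 3 libraries each. Fitted without the filter on low values, Egr3 was lower in osteoclasts without LPS (log2 difference -0.22, adjusted p = 0.00739) and with LPS (-0.20, adjusted p = 0.0113), and no LPS effect passed. Egr4 had at most 2 reads in any group. The corepressors that bind EGR proteins differed in direction, with a rise of Nab1 that was smaller under other scalings. Nab2 was at 16.8, 16.5 and 15.2 FPKM in untreated macrophages and fell to 2.98, 3.28 and 2.95 with LPS (-2.08, SE 0.07; adjusted p = 4.23e-11), whereas Nab1 rose from 23.6 to 41.6 (0.80, SE 0.05; adjusted p = 5.81e-08). On TPM the rise of Nab1 was 0.17 (adjusted p = 0.00874), and after quantile normalization it was 0.29 (adjusted p = 2.50e-04). In untreated osteoclasts Nab2 was at 0.362 FPKM, against 16.2 in macrophages (-3.66, SE 0.07; adjusted p = 2.82e-13), which alone carried it past the filter, and Nab1 was at 22.7.

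Of the 8 genes tested, LPS raised 4 (Ier2, Ier3, Ier5 and Plk2) and lowered 2 (Nr4a1 and Plk3) in macrophages, but on TPM it raised 2 (Ier3 and Plk2) and lowered 5 (Egr1, Egr2, Ier5, Nr4a1 and Plk3). As deposited, 36.8% of all genes tested were called higher and 33.1% lower in that contrast. On TPM 1797 of the 11335 genes were called higher and 7933 lower. After quantile normalization 2 of the 8 genes rose (Ier3 and Plk2) and 3 fell (Ier5, Nr4a1 and Plk3), against 3051 and 5193 of all genes. In osteoclasts LPS raised 2 (Ier3 and Plk2) and lowered none, where 11.1% were called higher and 6.59% lower. For the interaction, 2 genes were higher (Nr4a1 and Plk3), meaning a less negative or more positive effect in osteoclasts, and 4 were lower (Ier2, Ier3, Ier5 and Plk2), against 26.6% and 30.0% of all genes, but on TPM 3 were higher (Ier5, Nr4a1 and Plk3) and 1 lower (Ier3). On TPM 7175 of all 11335 genes were called higher in the interaction and 1572 lower. After quantile normalization 3 of the 8 genes were higher, Ier5 among them, and 2 lower (Ier3 and Plk2), against 4090 and 2734 of all genes. The contrasts share libraries, and since the genes were chosen with these values known, nothing is read from the shares. The median log2 difference of all genes was 0.02 in macrophages and 0.01 in osteoclasts as deposited. It shifted to -0.55 and -0.06 on TPM and to -0.14 and -0.05 after quantile normalization, and the share of calls that were higher moved from 52.6% to 18.5% and 37.0% in macrophages and from 62.8% to 43.5% and 38.5% in osteoclasts. For the interaction that share moved from 47.0% to 82.0% and 59.9%.

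**Figure D3:**
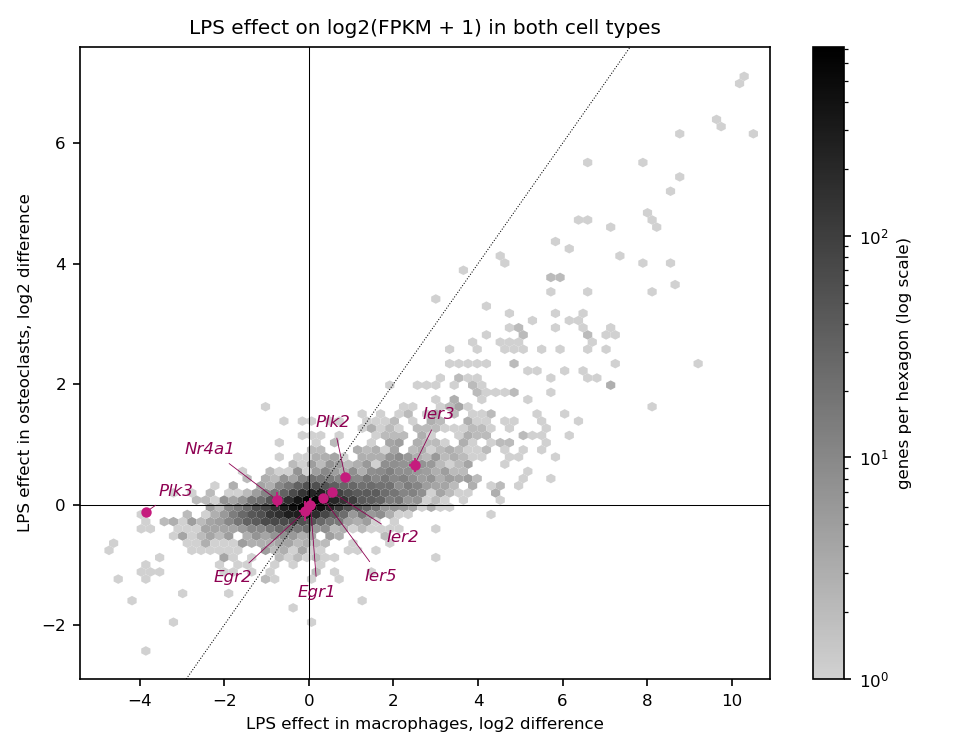
LPS effect in macrophages (horizontal) and osteoclasts (vertical) as log2 differences on log2(FPKM + 1); grey hexagons count the 11335 genes tested, magenta points are the 8 genes with SE bars, and the dotted line marks equal effects. Plk3 lies far left at -3.86 with -0.13 in osteoclasts, and Ier3 at 2.50 with 0.66; the macrophage effects of Ier2, Ier5 and Egr1 change sign when values are rescaled to TPM.

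Without LPS, 6 of the 8 genes were lower in osteoclasts than in macrophages and none was higher, where 39.0% of all genes were called lower and 38.8% higher. Egr1, Egr2 and Nr4a1 are among the 6, and the filter favoured their lower osteoclast values, here and with LPS. Ier3 was 11.3-fold lower (log2 difference -2.78, SE 0.12; adjusted p = 6.00e-10) and Nr4a1 9.06-fold lower (-1.38, SE 0.12; adjusted p = 5.01e-07). Plk3 was 2.74-fold lower (-1.36, SE 0.07; adjusted p = 1.52e-09), Ier5 2.22-fold (-1.08, SE 0.05; adjusted p = 4.59e-10), Egr2 6.17-fold (-0.96, SE 0.16; adjusted p = 1.29e-04) and Egr1 2.72-fold (-0.59, SE 0.12; adjusted p = 5.93e-04). On TPM the log2 differences were -1.27 for Egr1, -1.96 for Egr2 and -2.49 for Nr4a1, and after quantile normalization that of Egr1 was -0.36. Ier2 (-0.11, adjusted p = 0.150) and Plk2 (0.02, adjusted p = 0.839) did not pass. On TPM both were called lower, Plk2 at -0.38 (adjusted p = 2.92e-04) and Ier2 at -0.53 (adjusted p = 4.82e-05), which made 8 of 8. On that scale, however, the median over all genes was also -0.38, and 6457 of 11335 genes were called lower and 2760 higher, against 4421 and 4401 as deposited. Ier2 was also called after quantile normalization (-0.23, adjusted p = 0.0125), which made 7. The stromal and neutrophil markers given above were also lower in osteoclasts, and their part in the lower values of Egr1, Egr2, Egr3 and Nr4a1 was not tested. With LPS, 7 of the 8 were lower and 1, Plk3, was higher, where 43.0% of all genes were called lower and 40.9% higher. Plk3 was 10.2-fold higher in LPS-treated osteoclasts (2.37, SE 0.07; adjusted p = 7.34e-12) and Ier3 32.7-fold lower (-4.62, SE 0.12; adjusted p = 4.74e-12). Relative to macrophages, the sign for Plk3 thus differed with and without LPS, as its macrophage level changed and its osteoclast level did not pass the test.

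The order of levels in FPKM also differed by group. In untreated macrophages it ran Plk3 (25.5 ± 1.93, SD, n = 3), Ier5 (24.4 ± 0.723), Ier2 (20.9 ± 1.61), Ier3 (14.9 ± 1.29), Plk2 (6.85 ± 0.421), Nr4a1 (2.28 ± 0.528), Egr2 (1.37 ± 0.195), Egr1 (1.20 ± 0.398) and Egr3 (0.197 ± 0.0120). Plk3 and Ier5 overlapped there, as did Egr2 and Egr1. With LPS, Ier3 led at 88.5 ± 1.87, and the mean of Plk3, 0.821 ± 0.0413, lay above that of Egr3 alone, with libraries of Nr4a1 and Egr2 on both sides of it. In untreated osteoclasts Ier2 led at 19.3 ± 1.35, followed by Ier5 at 11.0 ± 0.418, Plk3 at 9.32 ± 0.686, Plk2 at 6.93 ± 0.396 and Ier3 at 1.31 ± 0.199. The other 4 genes were below 1 FPKM in every osteoclast library. With LPS, Plk2 at 9.94 ± 0.634 passed Plk3 at 8.42 ± 0.489 in osteoclasts, and no library of one overlapped the other.

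Other immediate-early genes and regulators of the ERK pathway, the MAP kinase route that feeds many of these genes, gave the setting. Of 25 other immediate-early genes tested (of 27 listed), 14 rose and 7 fell with LPS in macrophages, a split that became 12 and 12 on TPM, and 14 rose and 3 fell in osteoclasts. The shares called higher and lower over all genes were 36.8% and 33.1% in macrophages and 11.1% and 6.59% in osteoclasts. These shares are as deposited, and on TPM 1797 of 11335 genes were called higher and 7933 lower in macrophages. The median log2 differences of the 25 genes as deposited were 0.52 in macrophages and 0.44 in osteoclasts. Dusp2, a nuclear MAP kinase phosphatase, rose by 7.21 on the log2 scale in macrophages and 1.97 in osteoclasts, and Pim1, a survival kinase, by 5.40 and 2.20. Myc fell by 3.14 and Klf10, a TGF-beta-induced repressor, fell by 2.09 in macrophages, and neither passed in osteoclasts (0.16 and -0.17). In osteoclasts the lowest called were Klf2 (-0.69) and Jun (-0.50). The interaction was -5.24 for Dusp2 and 3.31 for Myc.

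Of 9 ERK feedback genes tested (of 11 listed), which encode phosphatases and SPRY or SPRED proteins that restrain the pathway and factors it induces, 3 rose and 6 fell in macrophages, and 2 rose and 2 fell in osteoclasts, with medians of -0.63 and 0.12. Over all genes, 36.8% were called higher and 33.1% lower in macrophages, and 11.1% and 6.59% in osteoclasts. Dusp6, the cytoplasmic ERK phosphatase, was at 73.0, 70.7 and 63.0 FPKM in untreated macrophages and 1.50, 1.65 and 1.77 with LPS, and at 11.6 and 6.79 on average in osteoclasts. That is -4.73 (SE 0.07; adjusted p = 1.20e-13) in macrophages and -0.69 (SE 0.07; adjusted p = 2.13e-05) in osteoclasts. Dusp4 fell by 2.72 in macrophages and Spred1 and Dusp5 rose there by 1.70 and 1.08, or by 1.07 and 0.54 on TPM. In osteoclasts Dusp5 (0.54) and Spred1 (0.28) rose and Etv5 fell by 0.78, and after quantile normalization Spred1 was at 0.17 (adjusted p = 0.0354).

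Of the 20 upstream kinases and factors, 12 rose and 5 fell in macrophages, a split that became 4 and 13 on TPM, and 3 rose and 3 fell in osteoclasts. Over all genes, 36.8% were called higher and 33.1% lower in macrophages as deposited, and 11.1% and 6.59% in osteoclasts. On TPM 1797 of 11335 genes were called higher and 7933 lower in macrophages. Map3k8, the kinase that links Toll-like receptors to ERK, was at 1.89, 2.02 and 2.01 FPKM in untreated macrophages and 60.5, 59.0 and 62.2 with LPS (log2 difference 4.37, SE 0.05; adjusted p = 3.46e-14). In osteoclasts Map3k8 went from 1.20 to 3.67 (1.08, SE 0.05; adjusted p = 3.85e-08), with an interaction of -3.29. Srf, which encodes serum response factor, fell by 0.57 in macrophages and rose by 0.40 in osteoclasts, with an interaction of 0.97 (SE 0.11; adjusted p = 1.47e-05). Its coactivators Mrtfa and Mrtfb fell by 0.79 and 1.00 in macrophages, where TPM gave -1.48 and -1.72 for them and -1.23 for Srf, and Rps6ka5, which encodes the kinase MSK1, rose by 1.06. Over all genes tested the medians were 0.02 in macrophages and 0.01 in osteoclasts, and nothing particular to these lists is read from the counts.

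**Figure D4:**
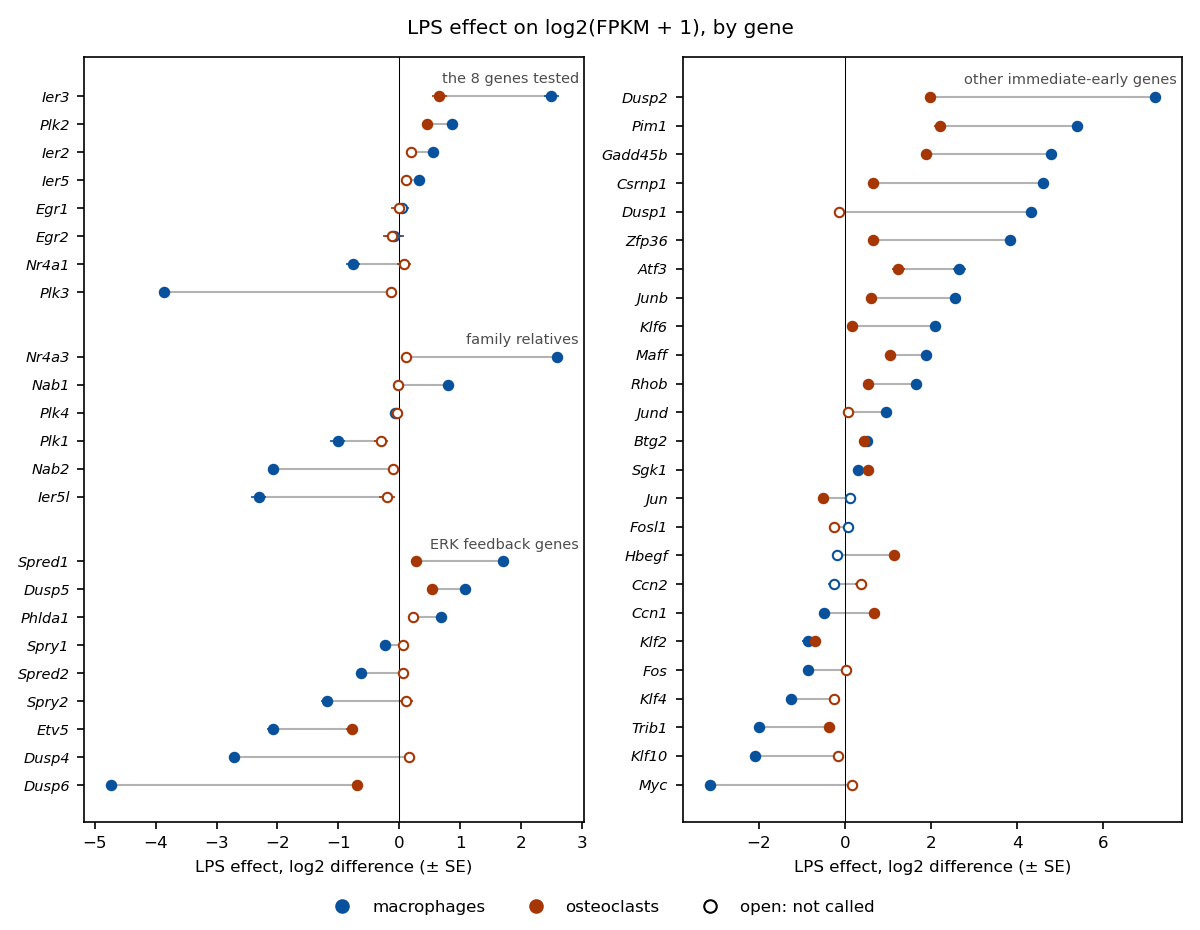
LPS effect as the log2 difference on log2(FPKM + 1) with SE bars, for the 8 genes, their family relatives and ERK feedback genes (left) and other immediate-early genes (right, on its own axis), in macrophages (blue) and osteoclasts (brown); open circles did not pass the test. Macrophage effects run from -4.73 for Dusp6 to 7.21 for Dusp2, and most osteoclast points lie nearer 0. Among the 8 genes, the macrophage effects of Ier2, Ier5 and Egr1 change sign when values are rescaled to TPM. Sign changes of the other genes shown are not listed.

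Genes with the most similar pattern were ranked by Pearson's r over the 12 libraries on log2(FPKM + 1), among genes averaging 5 FPKM or more. The libraries share 4 groups, so r mostly follows the group means and is a description only. For Plk3 these were Dcaf5 and Sh2b3 (both r = 0.995), for Ier3 Ednrb and Kcna3 (both 0.999), for Plk2 Oasl1 (0.988) and Ccl5 (0.985), and for Ier5 Rftn1 and Adap2 (both 0.998). For Ier2 they were 4921524J17Rik (0.969) and Kdm1a (0.966), for Nr4a1 Il6ra (0.975) and Camk1 (0.974), for Egr1 Ripk3 (0.959) and Man2c1 (0.949), and for Egr2 Ap4s1 (0.967) and Prkcb (0.966). Likeness in r did not mean likeness in size: Sh2b3 went from 48.2 to 12.6 FPKM with LPS in macrophages, a smaller drop than that of Plk3, and Oasl1 from 1.15 to 686, a larger rise than that of Plk2. Among the genes themselves, r was 0.966 for Ier3 and Ier5, 0.909 for Egr1 and Egr2, and -0.881 for Plk2 and Plk3.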

How the data were processed

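RNA from 12 libraries, 3 in each of 4 groups taken from the sample titles, was sequenced. The authors deposited FPKM for 54532 Ensembl mouse genes. The submitters' processing notes name fastp, STAR, featureCounts, DESeq2 and build mm10, without roles or versions, and per the labels' protocols the NEBNext Ultra RNA kit was used. Values above 0 were whole multiples of a step per gene in each library, within a tolerance of 0.02 of a read. At the merged exon lengths of GENCODE M21 this held for 96.8% of the 25854 genes. For the rest, the smallest length that gave whole reads in every library was searched for and used. That all 25854 genes gave whole reads is thus partly fixed by the search. The implied denominators departed by at most 5.10e-05% from median-of-ratios size factors multiplied by the libraries' geometric mean read total. This scaling to the typical gene is thus an inference from the values, since no label gives it. Total reads set the precision of low genes, and counts at or under 3 reads a library are at the floor, which covers counting error only.

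Genes that reached 1 FPKM in 3 or more libraries were tested with limma 3.58.1 in R 4.3.3 on log2(FPKM + 1). A single fit of the 4 group means with a variance trend used all libraries. From it came 5 contrasts: LPS in macrophages, LPS in osteoclasts, osteoclasts against macrophages without LPS and with it, and the interaction. Tests were two-sided, adjusted by Benjamini-Hochberg, and a gene was called at an adjusted p below 0.05. The steps were tested on simulated data. The genes, lists and tests were chosen with earlier results of these data known. Named were the 9 genes, any of their family relatives, the 2 highest and 2 lowest called genes of a list in a contrast, and the 2 genes most like each in pattern; Srf in macrophages, Tctex1d4 and cell type markers were added after their values were seen. As alternatives, the pseudocount was set to 0.1, the filter was dropped or raised to a mean of 5 FPKM, and the fit was repeated with TPM, quantile normalization, only the groups compared, a replicate block, no variance trend, each library left out in turn, or voom on the recovered reads. A planned comparison of protein sequences was not run.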

Additional observations from a re-analysis of the deposited data

Results flagged for a closer look

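For 6 of the 8 genes tested, the LPS effect differed between osteoclasts and macrophages by limma's interaction term, given as the effect in osteoclasts minus that in macrophages on the log2 scale. Plk3 differed by 3.73 and Nr4a1 by 0.84, and each fell with LPS in macrophages and did not pass the test in osteoclasts. Ier3 differed by -1.83 and Plk2 by -0.39, with a rise in both cell types that was larger in macrophages. Ier2 differed by -0.36 and Ier5 by -0.22, and these 2, like Plk2, changed sign on TPM, where Ier5 was called higher (0.34) and Ier2 and Plk2 did not pass. Of all genes tested, 26.6% were called higher and 30.0% lower in this contrast as deposited. On TPM 7175 of 11335 genes were called higher and 1572 lower. With 3 libraries a group, no test for a library far from the others was made.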

How the results depend on the processing

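Over the 8 genes tested and 5 contrasts, 787 of 817 comparisons with an alternative kept direction and call. Of these 817, 480 left out 1 library, in many cases a library outside the contrast, which cannot move its estimate. The total thus overstates stability. On TPM 29 of 40 comparisons were kept, and after quantile normalization 34 of 40. Among all comparisons that changed, 5 lost a call, 6 gained one, 4 were called in the opposite direction and 15 changed direction without a call before or after. Other than a gain for Ier2 in osteoclasts given below, the calls that changed did so on TPM or after quantile normalization. On TPM, the macrophage LPS effect turned to -0.43 for Egr1 (now called, like Egr2 at -0.64), -0.07 for Ier2 (call lost) and -0.30 for Ier5 (called), Plk2 without LPS turned to -0.38 (now called, like Ier2 at -0.53), and the interaction turned to 0.38 for Egr1, 0.38 for Egr2, 0.20 for Ier2 (call lost), 0.34 for Ier5 (called) and 0.14 for Plk2 (call lost). After quantile normalization, the macrophage effect turned to 0.04 for Egr2 and -0.16 for Ier5 (called), and the interaction to 0.03 for Ier2 (call lost) and 0.20 for Ier5 (called). Ier2 in macrophages no longer passed after quantile normalization (0.08, adjusted p = 0.320). These scalings move the median of all genes, as given above. Of the genes that passed the filter, a mean of at least 5 FPKM left 5, of which 3 were called between the untreated cell types and 5 between the LPS-treated, since fewer genes were tested.

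With each library left out in turn, genes called ranged from 2 to 3 for LPS in osteoclasts and stayed at 6 for LPS in macrophages, 6 between untreated cell types, 8 between LPS-treated cell types and 6 for the interaction. Ier2 passed in osteoclasts without untreated osteoclast replicate 1 (0.25, adjusted p = 0.0445). Directions changed only for values that had not passed: Egr1 ranged from -0.10 to 0.17 in macrophages, from -0.06 to 0.03 in osteoclasts and from -0.18 to 0.09 in the interaction, Egr2 from -0.27 to 0.10 in macrophages and from -0.21 to 0.16 in the interaction, and Plk2 without LPS from -0.03 to 0.05.

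The replicate block changed no call of these genes: with it, 6 were called for LPS in macrophages, 2 for LPS in osteoclasts, 6 and 8 between the cell types without and with LPS, and 6 for the interaction. Deviations of same-numbered libraries correlated at -0.07 to 0.10, so the numbers were not taken as pairs. In the lists, counts of genes changed by LPS in a cell type moved by over 1.5 times as follows. With a mean of at least 5 FPKM, 1 relative rose and 1 fell in macrophages (2 tested), 4 other immediate-early genes fell in macrophages and 1 in osteoclasts, and 7 upstream genes rose and 3 fell in macrophages. On TPM, 12 other immediate-early genes fell in macrophages, 4 upstream genes rose and 13 fell there, and 5 upstream genes and 1 relative fell in osteoclasts. Over all 11335 genes on that scale, 1797 rose and 7933 fell in macrophages, and 940 rose and 1221 fell in osteoclasts. With a pseudocount of 0.1, and in voom, 1 relative (Nr4a3) rose in osteoclasts. After quantile normalization, 9 upstream genes fell in macrophages and 6 in osteoclasts, and without the filter, with only the groups compared, or without untreated osteoclast replicate 3 or LPS-treated osteoclast replicate 1, 1 did in osteoclasts. Depth limits Egr2, Egr3 and Nr4a1 in osteoclasts, where a library held 1 to 27 reads of each.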
